A study of Mus musculus with 16 samples.

Results

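The regions described here were the OCT4 ChIP-seq peaks that lay near 47 genes for subunits of chromatin remodeler complexes in mouse embryonic stem (ES) cells. The genes encode BAF subunits, among them Smarca4 for the ATPase BRG1, the ISWI and CHD ATPases, the NuRD subunits, and the ATPases INO80 and EP400. A peak was assigned to a gene if its midpoint fell within 50 kb of any annotated transcript start of that gene. Of the 26704 peaks in the merged OCT4 list, 140 (0.524%) were assigned to a remodeler gene, and 0 of them were assigned to more than 1. At least 1 peak was found near 45 of the 47 genes (95.7%), against 72.1% of all protein-coding genes.

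Chromatin remodelers are multi-subunit machines that use ATP to slide, evict or exchange nucleosomes. Each is built around an ATPase of the SWI/SNF, ISWI, CHD or INO80 family, and the other subunits direct it to chromatin or modify its activity. In ES cells the BAF complex with BRG1 and the NuRD complex with CHD4 act at many enhancers and promoters that OCT4 and SOX2 also bind, and BRG1 is needed for the maintenance of the pluripotent state. OCT4 contacts an octamer through its POU domain, SOX2 contacts a short AT-rich core through its HMG box, and together they occupy a composite of the 2 elements.

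The series asked how loss of SOX2 or OCT4 alters ES cell chromatin, and it has 16 ChIP-seq libraries in 8 groups of 2. The 4 OCT4 libraries are from 2TS22C cells, a line in which the only active Sox2 is a transgene that doxycycline (dox) switches off. In the SOX2 ON group (n = 2) the cells were untreated, and in the SOX2 OFF group (n = 2) they received 1 µg/ml dox for 26 h, a time at which the line still holds some SOX2 protein. Both groups were grown in serum with LIF and 2 kinase inhibitors. The list of merged peaks gives a chromosome, a start and an end for each peak, with no height and no library of origin. It has no replicates and no read depth, so SOX2 OFF was not compared with SOX2 ON, and whether dox removed SOX2 cannot be read from it. A gene without a peak may still be bound below the calling threshold. Intervals in brackets are 95% Wilson intervals that cover counting error only, and neither peaks nor genes are replicates of a condition.

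The composite motif was searched as ATTTGCAT followed directly by AACAATG, on both strands, with at most 3 mismatches over the 15 positions. Matches were found in 19 of the 140 peaks, against 11.5% of all peaks of the list. Those with 1 or 2 mismatches, in 5 of the 140 (3.57%, against 2.21% of all peaks), are printed below together with the 3-mismatch match in Smarca4. Each line shows the match in capitals with 15 flanking bases on each side, 5′ to 3′ on the strand of the match, from GRCm38.p6 (mm10). The first lies in an intron of Smarca2, the Smarcd2 site lies beside the start of the neighbouring gene Ddx42, the first Arid1b site is intergenic, and the other sites are intronic.
Smarca2 (chr19:26608611-26608655, minus strand): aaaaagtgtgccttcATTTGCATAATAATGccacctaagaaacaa
Smarcd2 (chr11:106216655-106216699, minus strand): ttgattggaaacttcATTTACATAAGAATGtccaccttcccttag
Arid1b, upstream (chr17:4967346-4967390, minus strand): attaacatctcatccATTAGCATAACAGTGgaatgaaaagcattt
Arid1b, intron (chr17:5015111-5015155, plus strand): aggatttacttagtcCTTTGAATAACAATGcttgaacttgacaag
Chd9 (chr8:90881698-90881742, minus strand): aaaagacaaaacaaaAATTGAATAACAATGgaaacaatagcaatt
Smarca4 (chr9:21668500-21668544, plus strand): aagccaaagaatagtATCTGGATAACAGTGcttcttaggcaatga

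The octamer ATTTGCAT was also searched alone and without mismatch, so a composite match whose first 8 letters are intact counts under both motifs. It occurred in 17 of the 140 peaks, against 11% of all peaks. These included the upstream peak of Smarca4 and 4 peaks within 1 kb of a transcript start of their own gene. These 5 sites are shown with the octamer in capitals, again with 15 bases on each side.
Smarca4, upstream (chr9:21606069-21606106, minus strand): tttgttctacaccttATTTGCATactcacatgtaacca
Chd2 (chr7:73461836-73461873, minus strand): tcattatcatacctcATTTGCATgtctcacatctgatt
Chd9, inner start (chr8:90908433-90908470, minus strand): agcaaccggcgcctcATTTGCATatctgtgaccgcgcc
Mta2 (chr19:8941671-8941708, minus strand): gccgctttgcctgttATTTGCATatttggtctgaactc
Mta3 (chr17:83729237-83729274, plus strand): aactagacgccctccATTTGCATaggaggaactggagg

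The remodeler genes had 2.98 ± 2.19 peaks each (mean ± SD over 47 genes), with a median of 2 and a range of 0 to 11. The 21938 protein-coding genes of the annotation had a mean of 1.88 and a median of 1. At least 1 peak was present near 95.7% of the remodeler genes [85.8 to 98.8%] and near 72.1% of all protein-coding genes. At least 3 peaks were present near 21 remodeler genes, or 44.7% [31.4 to 58.8%], near 29.8% of protein-coding genes and near 39.4% of those with a CpG-rich start. A single peak was found near 7 remodeler genes (14.9%) and 2 peaks near 17 (36.2%), against 23.2% and 19.1% of protein-coding genes. There were 3 or 4 peaks near 15 remodeler genes and 5 or more near 6. The last share was 12.8% [5.98 to 25.2%], against 9.21% of protein-coding genes and 12.7% of those with a CpG-rich start.

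**Figure D1:**
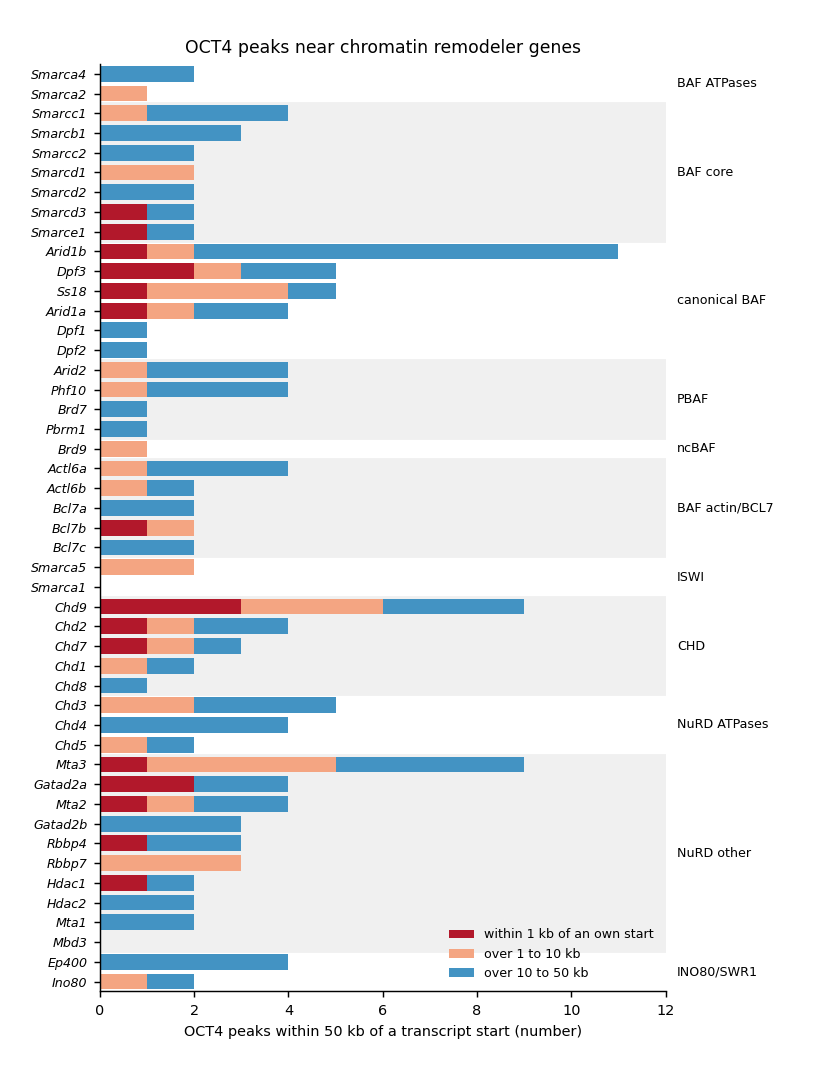
Number of OCT4 peaks within 50 kb of a transcript start (x axis) for each of the 47 remodeler genes, grouped by complex, with bar segments for the distance of the peak from the nearest own start. Arid1b has 11 peaks, Chd9 and Mta3 have 9 each, and Smarca1 and Mbd3 have 0.

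**Figure D2:**
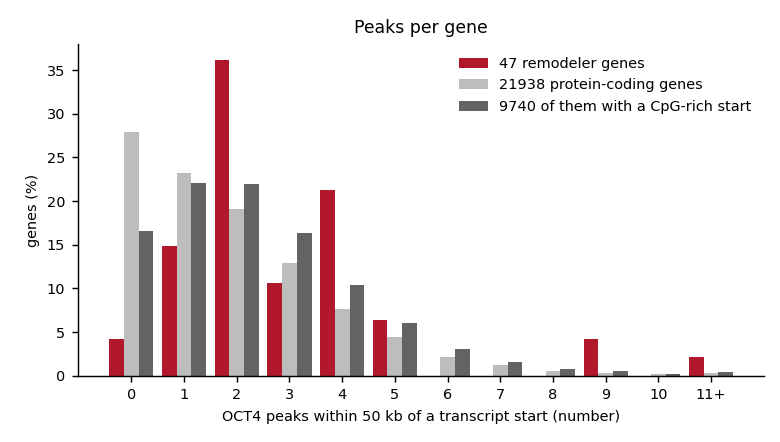
Percentage of genes (y axis) with a given number of OCT4 peaks within 50 kb of a transcript start (x axis) for the remodeler genes, all protein-coding genes and protein-coding genes with a CpG-rich start. Genes without a peak are 4.26% of the remodeler genes, 27.9% of all protein-coding genes and 16.6% of those with a CpG-rich start.

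The remodeler genes differ from the average protein-coding gene in features that bear on such a count. Their median length was 38.9 kb against 17.4 kb, their median number of distinct transcript starts was 6 against 3, and the windows around those starts covered a median of 125 kb against 103 kb. A CpG-rich start was defined by GC content of at least 50% and a CpG observed to expected ratio of at least 0.6. Both were taken over the 500 bp on each side of the most upstream start alone, so inner starts were not scored. Such a start was found at 39 remodeler genes (83.0%) and at 44.4% of protein-coding genes. The median number of other protein-coding genes within 50 kb, counted between most upstream starts alone, was 2 in both. When the protein-coding genes were weighted to the local gene density of the remodeler genes, 72.0% had a peak. Weighted to their window lengths, 80.4% had a peak, and weighted to CpG class and window length together, 83.5% had a peak, the mean number of peaks was 2.46, 41.3% had at least 3 peaks and 25.3% had a peak within 1 kb of an own start. CpG class was not weighted by itself. Per 100 kb of window, the median was 1.83 peaks for the remodeler genes, 1.00 for protein-coding genes and 1.75 for those with a CpG-rich start.

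The BAF ATPases had 3 peaks near 2 genes. Smarca4, which encodes BRG1, had 2 peaks, the median of the remodeler genes, and 51.1% of protein-coding genes had fewer. The first was 283 bp wide and lay in intergenic sequence 10.1 kb upstream of the Smarca4 start (chr9:21605961-21606243), and it held the octamer shown above. The second was 268 bp wide and lay in a Smarca4 intron, 32.8 kb downstream of the nearest annotated start (chr9:21668393-21668660), with the 3-mismatch composite match 4.5 bp from its midpoint. Smarca4 was the nearest protein-coding gene to both, and neither was within 1 kb of a Smarca4 start. Smarca2, which encodes the alternative ATPase BRM, had 1 peak of 609 bp in an intron, 1.25 kb downstream of the nearest start (chr19:26608220-26608828). It was the only one of the 140 peaks to hold the composite, the octamer and the SOX core. Its composite match, with 1 mismatch, was the closest to the consensus among the remodeler genes. That match opens with the intact octamer, so the composite and the octamer share bases there.

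The central 300 bases of the Smarca2 peak (chr19:26608375-26608674, plus strand) are printed because they carry that match, which is in capitals and reads in reverse complement on this strand.
Smarca2: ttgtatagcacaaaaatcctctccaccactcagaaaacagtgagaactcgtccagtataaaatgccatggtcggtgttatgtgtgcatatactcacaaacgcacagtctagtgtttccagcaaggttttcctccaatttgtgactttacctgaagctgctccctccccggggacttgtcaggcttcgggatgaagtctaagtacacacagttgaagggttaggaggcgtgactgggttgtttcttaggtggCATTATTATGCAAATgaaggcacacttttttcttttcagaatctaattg

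The BAF core subunits had 17 peaks near 7 genes, with 2 to 4 peaks each. Smarcc1 and Smarcc2 encode the paralogous scaffold subunits BAF155 and BAF170. Smarcc1, the form that prevails in ES cells, had 4 peaks, of which 2 lay in its introns and 2 lay beyond its 3′ end, closest to Cspg5. Smarcc2 had 2 narrow peaks of 203 and 209 bp, 1 of them 17.8 kb upstream and the other 0.038 kb from the start of Myl6. None of these 6 peaks held any of the 3 motifs. Smarcb1, which encodes the core subunit BAF47, had 3 peaks, all closer to another gene than to its own starts.

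Smarcd1, Smarcd2 and Smarcd3 encode the alternative BAF60 subunits and had 2 peaks each, in different positions. Both Smarcd1 peaks lay inside the gene, 1.11 and 1.79 kb downstream of a start, and both were within 1 kb of a start of the overlapping gene Gm17349. Both Smarcd2 peaks lay in or beside Ddx42, 45.9 and 48.3 kb from the nearest Smarcd2 start, and the 2-mismatch composite printed above was 0.256 kb from a Ddx42 start. Of the Smarcd3 peaks, 1 lay in the gene 0.268 kb upstream of an inner transcript start, and the other lay 26.7 kb upstream of the gene. Smarce1, for the HMG-box subunit BAF57, had a peak of 424 bp with 69.6% GC centred 0.0125 kb from a start, and a second peak 13.3 kb upstream, 0.221 kb from the Krt222 start, with the octamer and the SOX core.

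The first Smarcd1 peak is printed over its central 300 bases (chr15:99704450-99704749, plus strand) because it holds SOX cores on opposite strands, separated by 1 base. The SOX core was searched as CCATTGT or CCTTTGT on both strands, and the matches are in capitals.
Smarcd1: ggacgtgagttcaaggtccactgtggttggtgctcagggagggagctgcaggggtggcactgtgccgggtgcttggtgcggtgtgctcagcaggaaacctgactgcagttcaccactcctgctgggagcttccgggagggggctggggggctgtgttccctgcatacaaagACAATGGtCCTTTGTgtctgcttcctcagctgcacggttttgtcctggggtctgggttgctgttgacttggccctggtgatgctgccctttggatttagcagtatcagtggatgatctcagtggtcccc

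The canonical BAF subunits had the most peaks of the BAF classes, with 27 near 6 genes and a median of 4.5. Arid1a and Arid1b encode mutually exclusive ARID subunits that define canonical BAF. Arid1b had 11 peaks, more than any other remodeler gene and more than 99.7% of protein-coding genes had. They extended from 45.8 kb upstream of its first start to 95.2 kb downstream of it, 7 of them inside the gene, and Arid1b was the nearest protein-coding gene to all 11. A composite match was found in 3 of the 11 and the octamer in 2. Arid1a had 4 peaks, 1 of them 0.773 kb upstream of its first start, and none held a composite or an octamer. Per 100 kb of window, Arid1b had 7.52 peaks and Arid1a had 2.94.

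Ss18, which encodes the canonical BAF subunit SS18, had 5 peaks, with Ss18 the nearest protein-coding gene to all of them. The octamer was present in 3 of them, all intronic, and a peak with 74.2% GC, the highest of the 140, lay 0.071 kb upstream of a start. Dpf1, Dpf2 and Dpf3 encode the alternative BAF45 subunits, of which DPF2 is the widely expressed form and the others act mainly in neural and muscle cells. Dpf3 had 5 peaks, with 1 on each side of its first start at 0.172 and 0.95 kb and 1 with a composite match 30.3 kb upstream. Dpf1 and Dpf2 had 1 peak each, and both of these were closer to another gene, Ppp1r14a and Slc25a45.

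Peaks near the PBAF subunits numbered 10 over 4 genes, and none lay within 1 kb of an own start. Arid2, for the ARID subunit that defines PBAF, had 4 peaks, the nearest 1.62 kb upstream of a start, 809 bp wide and with the octamer. Phf10, for the BAF45A subunit, had 4 peaks, all closer to another gene, and 1 of them, in a Wdr27 intron, held a composite match with 3 mismatches. Pbrm1 and Brd7, for bromodomain subunits, had 1 peak each, the former in a coding exon of Smim4 and the latter 20.5 kb upstream of Brd7. Brd9, for the bromodomain subunit of the non-canonical BAF complex, had 1 peak in a Trip13 intron, 5.48 kb upstream of its own start.

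Among the actin-related and BCL7 subunits, Actl6a had 4 peaks and Actl6b had 2. Actl6a encodes BAF53A, the form of proliferating cells, and 3 of its 4 peaks formed a group between 40.1 and 44.6 kb downstream of the nearest start, closest to Ndufb5, of which 1 held a composite match with 3 mismatches. Actl6b encodes the neuronal form BAF53B, and both of its peaks held the octamer, 1 in its own intron and the other 0.157 kb from the start of Gnb2. Bcl7a, Bcl7b and Bcl7c had 2 peaks each. The Bcl7b start was covered by a peak of 563 bp with 71.8% GC, and its second peak lay 0.317 kb from the start of Baz1b, itself an ISWI-associated remodeler gene.

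Of the ISWI ATPases, Smarca5, which encodes SNF2H and is the form of most dividing cells, had 2 peaks, and Smarca1, which encodes SNF2L, had 0. Both Smarca5 peaks lay inside the gene, 1.41 and 5.72 kb downstream of an inner start, and the second had the lowest GC content of the 140, 31.9%.

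The CHD ATPases outside NuRD had 19 peaks near 5 genes. Chd9, a chromodomain ATPase of the CHD7 family, had 9 peaks, more than 99.2% of protein-coding genes had, and was the nearest protein-coding gene to all 9. Of these, 8 lay inside the gene, 3 were within 1 kb of 1 of its starts, 3 held a composite match and 4 a SOX core. The rank by count takes no account of window length. Chd9 has 14 transcript starts and a window of 263 kb. Per 100 kb of window it had 3.42 peaks, against 3.79 for Ss18 with 5 peaks. The peak with the octamer at an inner start was 226 bp wide with 73.0% GC, and its midpoint also lay in the annotated gene Gm6658. Chd2 had 4 peaks, 2 with composite matches of 3 mismatches and 1 with the octamer 0.209 kb upstream of an inner start. Chd7, which is mutated in CHARGE syndrome, had 3 peaks, 1 of them 0.274 kb from an inner start and 1, with the octamer and the SOX core, 2.19 kb upstream of the gene. Chd1, whose product is linked to the open chromatin of ES cells, had 2 peaks without any of the 3 motifs. Chd8 had 1 peak, in a Tox4 intron.

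The NuRD ATPases had 11 peaks, and neither a composite match nor an octamer was found in them. Chd4, the main NuRD ATPase of ES cells, had 4 peaks at distances of 14.2 to 42.1 kb, each closer to Lpar5, Iffo1 or Gapdh. Chd3 had 5, of which 3 lay 42.2 to 48.2 kb upstream near Kdm6b, and 1, with a SOX core, lay 1.88 kb upstream of Chd3 itself. Chd5, the neural form, had 2 peaks, 1 in its own intron and 1 beside Hes3.

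The other NuRD subunits had 32 peaks near 9 of 10 genes, and 5 of the 10 had a peak within 1 kb of an own start. Mta1, Mta2 and Mta3 encode alternative MTA scaffold subunits. Mta3 had 9 peaks, 6 of them inside the gene, with the octamer in a peak 0.216 kb from an inner start and a composite match in a peak 28.7 kb upstream. Mta2 had 4 peaks, 1 of them 0.343 kb upstream of its start with the octamer and the other 3 closer to another gene. Mta1 had 2 peaks, and the intronic 1, of 715 bp, held a composite match with 3 mismatches.

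Hdac1 and Hdac2 encode the NuRD deacetylases and had 2 peaks each. The peak 0.983 kb upstream of Hdac1 was 1446 bp wide, the widest of the 140, with 52.5% of the sequence repeat-masked. The second Hdac1 peak, 29.0 kb upstream in an Lck intron, held a composite match. Neither Hdac2 peak was closer than 20.7 kb. Gatad2a and Gatad2b, for the p66 subunits, had 4 and 3 peaks. A pair of Gatad2a peaks lay at 0.0955 and 0.608 kb from an inner start. The histone chaperone genes Rbbp4 and Rbbp7 had 3 peaks each, and the Rbbp4 peak 0.566 kb from its start was closer still to the start of Zbtb8os, at 0.076 kb. Mbd3, which encodes the methyl-CpG-binding domain subunit of NuRD, had 0 peaks within 50 kb. By most upstream starts, 4 other protein-coding genes lie within 50 kb of it.

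Ino80, for the ATPase of the INO80 complex, had 2 peaks, 1 of them intronic, 1033 bp wide and with a composite match. Ep400, for the ATPase of the TIP60-EP400 complex, had 4 peaks between 33.5 and 44.3 kb upstream, all closest to Ulk1, of which 3 held a SOX core and 1 a composite match.

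Peaks at a transcript start of the gene itself were found at 15 of the 47 genes (31.9% [20.4 to 46.2%]). The share was 16.5% of all protein-coding genes and 24.7% of those with a CpG-rich start, and the interval included the latter. The 15 genes were Smarcd3, Smarce1, Arid1a, Arid1b, Dpf3, Ss18, Bcl7b, Chd2, Chd7, Chd9, Hdac1, Mta2, Mta3, Gatad2a and Rbbp4, with 19 peaks. In 10 of them the peak lay at the most upstream start, and in 5 (Smarcd3, Chd2, Chd7, Mta3 and Gatad2a) it lay at a start further inside the gene alone. When only the most upstream start of each gene was used, the shares were 21.3% of the remodeler genes, 12.5% of protein-coding genes and 20.2% of those with a CpG-rich start. With starts of protein-coding transcripts only, they were 25.5%, 14.8% and 22.4% in the same order. Of the 19 peaks, 8 had a CpG observed to expected ratio of at least 0.6, 5 had a GC content of at least 65%, 1 held a composite match, 4 the octamer and 2 the SOX core. Of the 3674 peaks of the list within 1 kb of a protein-coding start, 44.7% had such a CpG ratio, 6.23% a composite match, 8.41% the octamer and 17.6% the SOX core.

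The start peaks of Arid1b, Bcl7b and Smarce1 are shown as examples of start peaks with a high GC content, over a stretch without annotated untranslated sequence and with each CG dinucleotide in capitals. The Arid1b stretch has 30 CG dinucleotides in 200 bases and 75% GC, the Bcl7b stretch 16 in 193 bases and the Smarce1 stretch 20 in 188 bases.
Arid1b (chr17:4994192-4994391, plus strand): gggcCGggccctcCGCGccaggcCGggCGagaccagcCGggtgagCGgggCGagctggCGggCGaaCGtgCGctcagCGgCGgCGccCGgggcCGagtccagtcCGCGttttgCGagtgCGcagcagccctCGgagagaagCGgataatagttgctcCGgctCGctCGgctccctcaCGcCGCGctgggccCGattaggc
Bcl7b (chr5:135168553-135168745, plus strand): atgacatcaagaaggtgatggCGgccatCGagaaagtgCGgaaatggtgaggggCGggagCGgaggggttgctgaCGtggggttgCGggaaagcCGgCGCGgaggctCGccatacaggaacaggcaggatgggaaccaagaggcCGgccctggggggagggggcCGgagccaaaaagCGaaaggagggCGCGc
Smarce1 (chr11:99230214-99230401, minus strand): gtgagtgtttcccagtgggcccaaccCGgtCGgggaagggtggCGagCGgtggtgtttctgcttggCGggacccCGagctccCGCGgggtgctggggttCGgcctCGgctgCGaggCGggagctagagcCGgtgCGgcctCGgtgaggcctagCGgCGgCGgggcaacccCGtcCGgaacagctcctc

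By position, 19 of the 140 peaks lay within 1 kb of an own start, 36 at 1 to 10 kb and 85 at 10 to 50 kb, with a median distance of 14.4 kb. There were 77 upstream and 63 downstream of the nearest own start, and 58 lay inside the body of the gene they were assigned to. Introns held 48.6% of the midpoints and intergenic sequence 36.4%, compared with 50.8% and 38.2% of the 18851 peaks within 50 kb of any protein-coding start. A protein-coding start of any gene was within 1 kb of 41 peaks, or 29.3% [22.4 to 37.3%]. The corresponding share was 13.8% of all peaks and 19.5% of the peaks within 50 kb of a protein-coding start. Of these 41 peaks, 22 were at the start of a neighbouring gene and not at an own start.

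**Figure D3:**
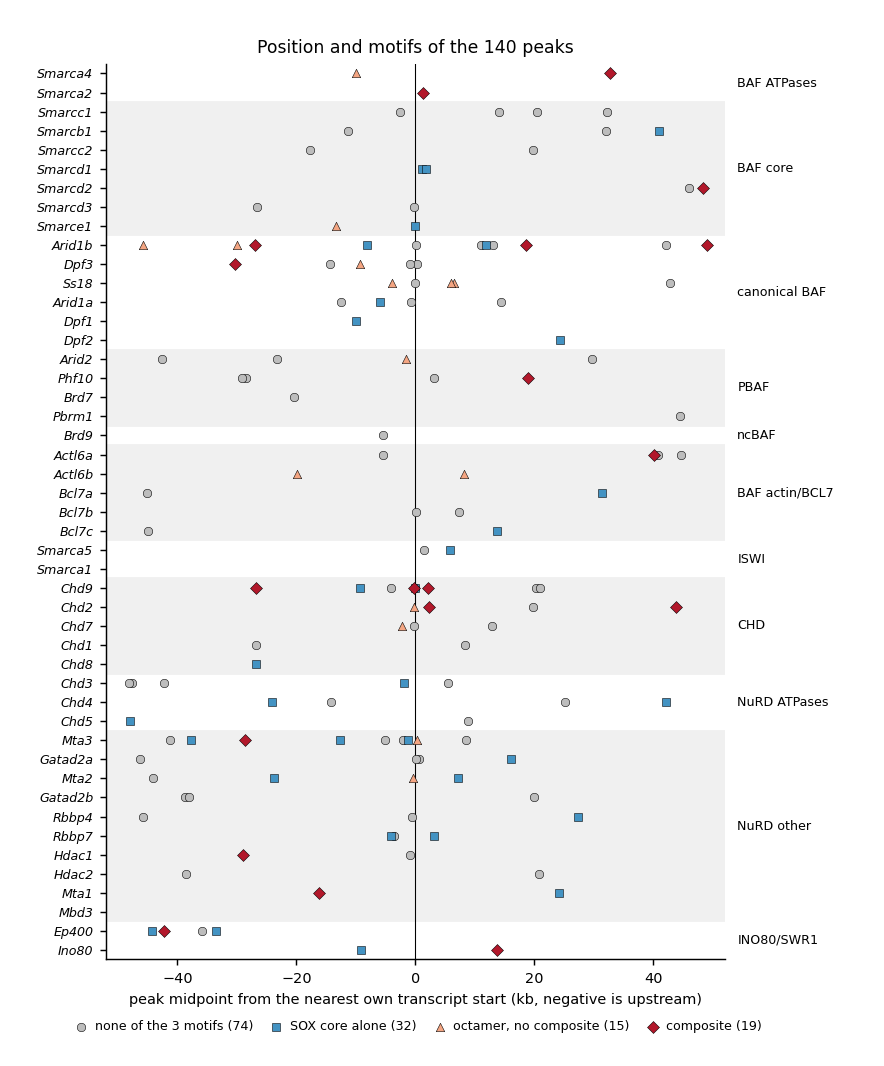
Distance of each of the 140 peaks from the nearest transcript start of its own gene in kb (x axis, negative is upstream), with 1 row for each of the 47 genes and a symbol for the motif held. Composite matches mark 19 peaks, and the peaks of Smarcc1, Smarcc2, Smarcd3, Pbrm1, Brd7, Brd9, Bcl7b, Chd1, Hdac2 and Gatad2b are without any of the 3 motifs.

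Assignment by distance does not name a target. The nearest protein-coding start belonged to a remodeler gene for 82 of the 140 peaks (58.6%), and for 58 (41.4%) when starts of genes of every type were counted. With protein-coding starts alone, all peaks of 14 genes were nearest to the gene itself, among them Smarca4, Smarca2, Arid1a, Arid1b, Ss18, Chd7, Chd9 and Ino80. For another 14 genes with peaks, which include Smarcb1, Smarcd2, Phf10, Chd4 and Ep400, no peak was nearest to the gene itself. Counted between most upstream starts, Smarca2, Arid1a, Arid1b, Chd7 and Ino80 have 0 other protein-coding genes within 50 kb, Ss18 and Chd9 have 1, and Smarca4 has 2. Smarcb1 has 6, Smarcd2 and Phf10 have 5, Chd4 has 4 and Ep400 has 2. Whether the split goes beyond local gene density was not tested, and the same split over all protein-coding genes is not given. Of the 19 peaks with a composite match, 12 were nearest to the assigned gene, and these belonged to 8 genes.

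A composite match was present in 19 peaks, or 13.6% [8.86 to 20.2%], against 11.5% of all peaks. The octamer was present in 17, or 12.1% [7.72 to 18.6%], against 11% of all peaks. The SOX core was present in 43, or 30.7% [23.7 to 38.8%], against 30.3% of all peaks. Each interval included the share of the whole list. At least 1 of the 3 motifs was found in 66 peaks (47.1%), against 43.7% of all peaks and 41.0% of the peaks within 50 kb of a protein-coding start. The 66 peaks lay near 35 of the genes, and the same count over all protein-coding genes is not given. In windows of the same width centred 5 kb to each side of the 140 peaks, the shares were 1.80% for the composite, 1.44% for the octamer and 11.9% for the SOX core over 278 windows. In 52500 such windows beside all peaks of the list, they were 1.86%, 2.44% and 13.2% in the same order.

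**Figure D4:**
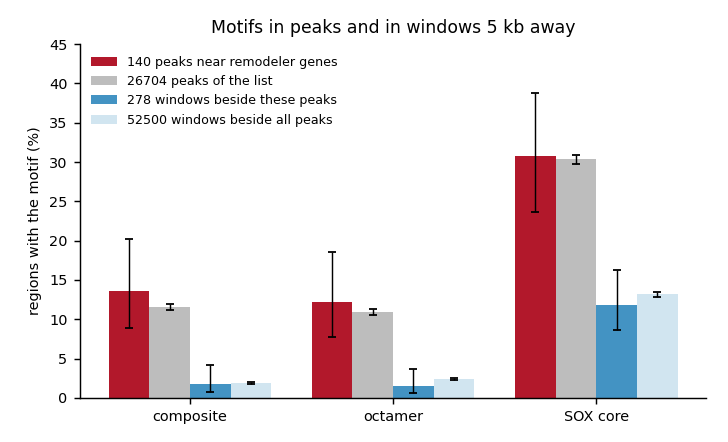
Percentage of regions with each motif (y axis) in the 140 peaks near remodeler genes, in all peaks of the list and in windows of equal width 5 kb away, with 95% Wilson intervals as error bars. The SOX core is in 30.7% of the 140 peaks and in 11.9% of the windows beside them, against 30.3% and 13.2% for all peaks.

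Composite matches were found near 14 genes, which were Smarca4, Smarca2, Smarcd2, Arid1b, Dpf3, Phf10, Actl6a, Chd2, Chd9, Ino80, Ep400, Hdac1, Mta1 and Mta3. For Smarcd2, Dpf3, Phf10, Actl6a, Ep400 and Hdac1, the peak with the match was nearest to another protein-coding gene. The same count over all protein-coding genes is not given, so the 14 cannot be set against a background. Among the 99 distal peaks, more than 1 kb from any protein-coding start, 17 held a composite match (17.2% [11.01 to 25.8%]), against 12.4% of all distal peaks. Among the 41 peaks at a protein-coding start, 2 held a composite match (4.88% [1.35 to 16.1%]), against 6.23% of all such peaks. The octamer was in 14.6% [6.88 to 28.4%] of these 41 against 8.41%, the SOX core in 26.8% [15.7 to 41.9%] against 17.6%, and any of the 3 motifs in 41.5% [27.8 to 56.6%] against 27.1%. The last interval did not include the share over all such peaks, and no test was run. Of the 19 peaks at an own start, 6 held any of the 3 motifs, and the others of the 41 lay at a neighbouring gene's start. The 41 peaks had a median width of 424 bp, against 329 bp for all such peaks. Whether width bears on the motif shares was not tested. Of the 21 composite matches, 11 were within 50 bp of the peak midpoint.

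The 140 peaks had a median width of 396 bp, with 287 to 515 bp spanning the middle 50%, and a median GC content of 48.6%. All peaks of the list had a median width of 352 bp and a median GC content of 46.4%, and those within 50 kb of a protein-coding start had 348 bp and 47.1%. The 41 peaks at a protein-coding start had a median GC content of 54.2%, and the 99 distal peaks had 45.5%. A second peak lay within 10 kb for 57 of the 140 (40.7% [32.9 to 49.0%]), against 34.0% of all peaks. The share was 36.0% of the peaks within 50 kb of a protein-coding start, and the interval included both shares.

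**Figure D5:**
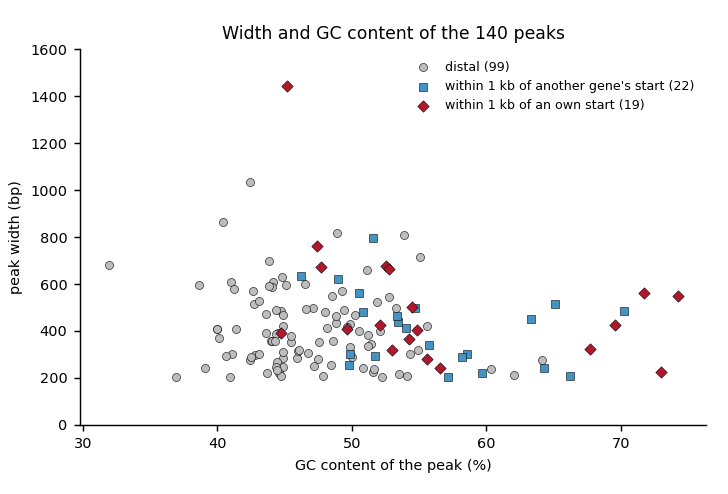
Width in bp (y axis) against GC content in % (x axis) for each of the 140 peaks, with symbols for peaks within 1 kb of an own start, within 1 kb of another gene's start, or distal. The widest peak, of 1446 bp, is at the Hdac1 start, and the 5 own-start peaks with at least 65% GC are those of Smarce1, Arid1b, Ss18, Bcl7b and the inner start of Chd9.

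A further 45 genes for accessory or related remodeler proteins, among them ISWI partners (Baz1a, Bptf, Rsf1), INO80 and SRCAP subunits (Ino80b, Srcap, Ruvbl1) and Kat5 complex subunits (Trrap, Epc1, Brd8), were counted in the same way. At least 1 peak was present near 42 of them (93.3%), at least 3 near 28 (62.2%), and a peak within 1 kb of an own start at 14 (31.1%). They had 3.07 ± 1.98 peaks each (mean ± SD), and CpG-rich starts were found at 82.2%. Baz2b had the most peaks, with 10, and Actr5, Dmap1 and Yeats4 had 0.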

How the data were processed

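ChIP-seq for OCT4, BRG1 and H3K27ac was carried out by the authors on 16 mouse ES cell libraries. The 1 file used is the merged OCT4 list from 2TS22C cells, whose deposited values are peak start and end coordinates in bp, with no count, height or p-value. According to the study's methods the authors aligned reads to mm10 with STAR 2.6.1c, removed duplicates with Picard, called peaks with MACS2 2.1.1.20160309 on paired-end fragments, and merged them with BEDTools. Which libraries were merged is not given in the sources used here, so the depth behind a peak is unknown.

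Peak midpoints were compared with all transcript starts of GENCODE M21 on GRCm38.p6, and coordinates are given 1-based. A gene named as nearest or closest to a peak is the nearest protein-coding gene, unless genes of every type are named. Sequence was read from the RefSeq FASTA, and lower-case bases were taken as repeat-masked. Values for all protein-coding genes were also averaged with weights that gave them the remodeler genes' distribution of other protein-coding genes within 50 kb, counted up to 5. That number used the most upstream start of each gene, whereas peaks were assigned from all starts. Flanking windows that met a peak or unknown bases were left out. No test was run, because the list has no samples to compare. The motif search was tested on simulated data. Python 3.11.15, NumPy 2.4.6, SciPy 1.17.1, pysam 0.24.0 and matplotlib 3.10.9 were used.

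The genes and the lists were chosen with earlier results of these data known. By rule, genes described with positions were Smarca4, those with a peak within 1 kb of an own start, those with a composite match, the 5 with the most peaks, those with no peak, and 8 sets of paralogs (Smarca, Smarcc, Smarcd, Actl6, Dpf, Arid1, Mta, and Chd3 to Chd5). Other genes were added to complete the complexes. Alternatives changed the distance, the starts, the peak width, the repeat filter and the motif definition. The BRG1 and H3K27ac libraries were not analysed here.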

Additional observations from a re-analysis of the deposited data

How the results depend on the processing

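No paired analysis was possible because the peaks carry coordinates alone and no value for any library, so no replicate could be left out either. Of 49 alternatives to 11 results, 31 left a count or mean within 1.5 times, or a share or median within its interval. The other 18 follow, and where they change a distance, a width or a mismatch limit the shift follows from their construction. Within 10 kb, 29 genes (61.7%) had a peak, with 55 peaks and a mean of 1.17 per gene. Of all protein-coding genes, 38.5% had a peak at that distance, with a mean of 0.571. Within 100 kb, there were 243 peaks and a mean of 5.17, and all 47 genes had a peak. Of all protein-coding genes, 85.4% had a peak within 100 kb, with a mean of 3.37. The weighted share of protein-coding genes with a peak was 72.0% for gene density. It became 80.4% with window length, 81.4% with density and window length, 83.7% among genes with CpG-rich starts and 83.5% with CpG class and window length. All 4 were added after seeing the data. So were the start choices for own-start peaks, the mean without Arid1b and the composite share without repeat-masked peaks (14.9%). Peaks near a protein-coding start were 22.1% of the 140 within 500 bp and 40% within 2.5 kb. Composite matches were in 3.57% with at most 2 mismatches, against 2.21% of all peaks, and in 35% with at most 4, against 35.9%. In the central 200 bp the shares were 7.86% for the composite, 5.71% for the octamer and 17.9% for the SOX core, against 8.59%, 7.98% and 20.5% of all peaks. The median width of peaks of at least 300 bp was 464.5 bp. With genes of every type, 41.4% of peaks were nearest to a remodeler gene. Without Arid1b the mean was 2.80 peaks. The depth behind the peaks is unknown, which limits what a gene with few peaks shows.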
